A study of Homo sapiens with 4 samples.

Results

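The genes of the human proteasome were examined across 12 RNA sequencing libraries of A549 and 293T cells. They were taken by name, as the protein-coding rows whose symbol was PSM followed by a letter from A to G and a number. This gave 47 genes out of 26348 listed, of which 17669 were protein-coding. They comprised 18 core genes (PSMA and PSMB), 20 cap genes (PSMC and PSMD) and 9 genes for activators or assembly factors (PSME, PSMF and PSMG). PSMA8 was not analysed here. The libraries formed 4 groups of 3, namely A549 cells, a human non-small cell lung cancer line, placed in a magnetic field for 2 h, A549 cells given no field, 293T cells, a human renal epithelial line, placed in the field for 2 h, and 293T cells given no field. Exposed and control cells of a line differed only by the field as far as the labels state, and no genetic change or other agent was given. The sources used here give neither the strength nor the form of the field. Each tissue is represented by 1 established line. No label says that replicates were grown as separate cultures, so p-values measure the spread among libraries only, part or all of which may be technical.

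The proteasome is the main protease for ubiquitin-tagged proteins in the cytosol and nucleus. Its barrel-shaped core is built from rings of alpha subunits, which gate the entrance, and rings of beta subunits, which carry the proteolytic sites inside. A regulatory cap with a ring of ATPases recognises, unfolds and feeds in the substrates, and other activators can dock on the core in its place. Dedicated chaperones assemble the core and the base of the cap and then leave, and the transcription factor NFE2L1 raises most subunit genes together when proteasome activity is impaired.

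Values are FPKM, fragment counts scaled to gene length and library total, from libraries of 37171616 to 38883963 recovered counts. The line genes KRT7 and ALDH1A1 averaged 574 and 2407 FPKM in exposed A549 libraries, and NEFM and LIN28B averaged 40.3 and 21.1 FPKM in exposed 293T libraries. KRT7 was at most 0.763 FPKM in a 293T group and NEFM at most 0.0437 FPKM in an A549 group, while the other 293T list genes were less distinct, with NEFL at 3.09 FPKM in exposed A549 and 17.6 FPKM in exposed 293T, PAX2 and CRABP1 under 0.6 FPKM in every group, and SALL4 higher in A549 (0.557 FPKM in exposed A549 and 0.367 FPKM in exposed 293T). NAPSA, a lung marker, averaged 1.1 FPKM in exposed A549 and 0.604 FPKM in control A549. Exposed replicate 3 lay nearest to the controls along the first principal component in both lines (9.91 in A549, where controls reached -14.0, and 6.51 in 293T, where they reached -11.7), so the counts of calls are also given without it. Mitochondrially encoded genes took 7.69 to 7.96% of the counts in exposed A549 against 8.35 to 9.28% in control A549, and 4.37 to 4.45% in exposed 293T against 4.85 to 5.21% in control 293T.

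Of the 47 genes, 46 passed the filter of at least 0.5 FPKM in at least 3 libraries and were tested. PSMB11, a beta subunit of the thymus, had 0 or 1 count in every library and was not tested. PSMB8 and PSMB9, subunits of the immunoproteasome, passed the filter through the A549 libraries alone. A gene was called where its limma adjusted p was under 0.05, with Benjamini-Hochberg adjustment over all 13811 genes tested.

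In exposed A549 cells PSMB3, PSMB4 and PSMD10 rose, and PSMD7, PSME3, PSME4 and PSMF1 fell. These were 7 of 46 genes, 3 higher and 4 lower, while 40.2% of all genes tested were called, 13.3% higher and 26.9% lower. In exposed 293T cells PSMA7, PSMB3 and PSME2 rose, and PSMC5, PSMD3, PSMD4, PSMD5, PSMD8, PSMD9, PSME3, PSME4 and PSMF1 fell. These were 12 of 46, 3 higher and 9 lower, against 38.0% of all genes, 13.7% higher and 24.2% lower. Both counts lay below the share of genes at large, and that difference was not tested. With median centring of each library the split was 8 higher and 0 lower in A549 and 4 and 4 in 293T, with quantile normalization 1 and 7 in A549, and with the library total taken over non-mitochondrial genes 1 and 9 in A549 and 2 and 11 in 293T. PSMB3 rose in both lines, and PSME3, PSME4 and PSMF1 fell in both. In these bulk libraries, fewer cells of a type and less RNA per cell cannot be told apart. Without exposed replicate 3, 3 genes were higher and 6 lower in A549, and 2 were higher and 12 lower in 293T.

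**Figure D1:**
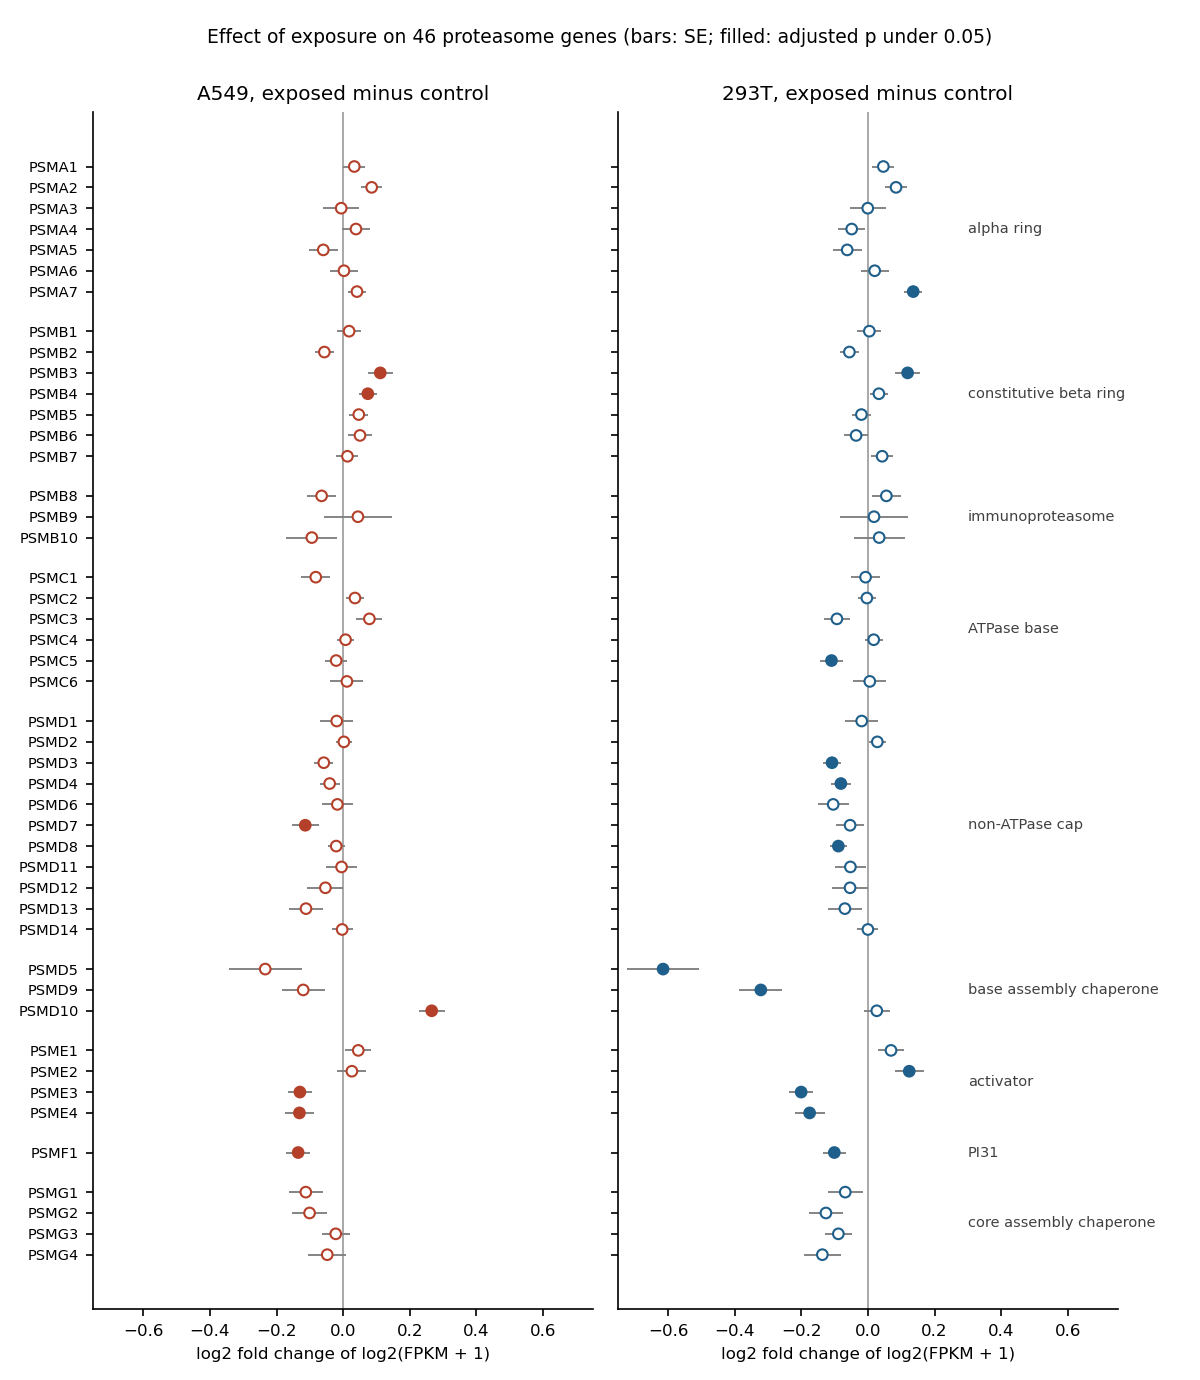
Log2 fold change of each of 46 proteasome genes in A549 (left) and 293T (right), exposed minus control, on the log2(FPKM + 1) scale. Points are estimates from 3 libraries per group, bars are 1 SE, and filled points had a limma adjusted p under 0.05. Most genes lie close to 0, PSMD10 stands to the right in A549 (0.27), and PSMD5 and PSMD9 stand to the left in 293T (-0.62 and -0.32).

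Most effects were small. The median size of the log2 fold change, taken without sign, was 0.047 in A549 and 0.055 in 293T for the proteasome genes. It was 0.115 and 0.110 for all genes tested. The same was counted at similar level. Among genes with a mean of 20 to 350 FPKM, 6 of 39 proteasome genes (15.4%) were called in A549, against 1189 of 2851 genes (41.7%). In 293T they were 9 of 39 (23.1%) against 1146 of 2851 (40.2%). Within that range the median size of the change was 0.042 against 0.090 in A549 and 0.054 against 0.091 in 293T.

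**Figure D2:**
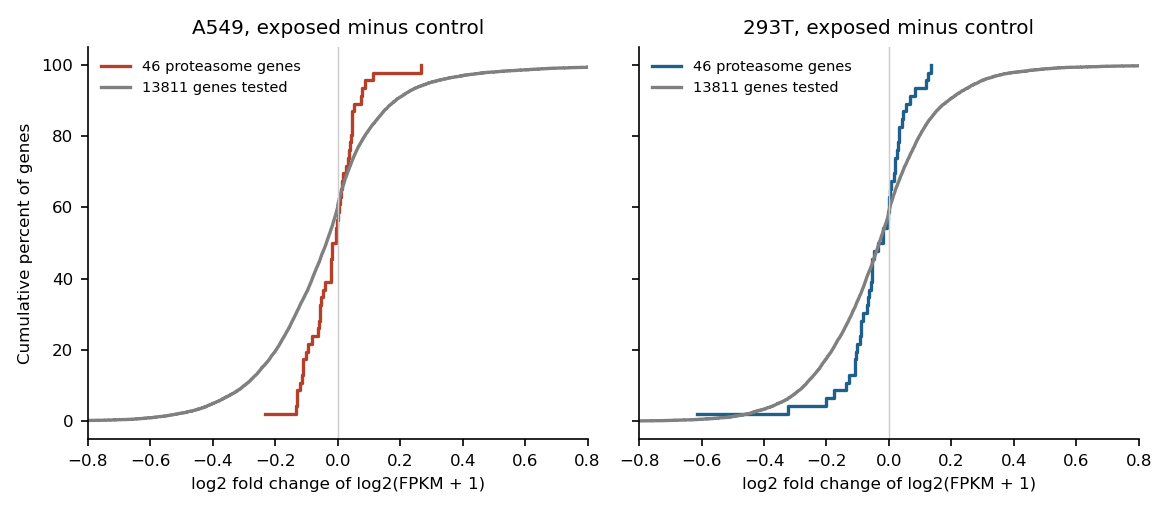
Cumulative percent of genes (vertical axis) by log2 fold change, exposed minus control (horizontal axis), in A549 (left) and 293T (right). The coloured steps are 46 proteasome genes and the grey line is all 13811 genes tested. The steps rise over a narrower range than the grey line, with a median of -0.01 in A549 (0.04 with median centring) and -0.03 in 293T.

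The classes differed in their medians in the same order in both lines. Core genes had a median log2 fold change of 0.03 in A549 and 0.02 in 293T, cap genes of -0.02 and -0.05, and activator or assembly genes of -0.10 and -0.10. The median of all genes tested was -0.04 in A549 and -0.03 in 293T. The core median in A549 changed sign with quantile normalization (-0.01) and with the library total taken over non-mitochondrial genes (-0.01). The cap median in A549 changed sign with median centring (0.04). Those of activator or assembly genes were negative under every scaling tried, from -0.14 to -0.05 in A549 and from -0.12 to -0.07 in 293T. Without exposed replicate 3 the core, cap and activator or assembly medians were 0.02, -0.03 and -0.13 in A549 and 0.03, -0.08 and -0.11 in 293T. Of 17 core genes tested, 2 rose in A549 and 2 in 293T. Of 20 cap genes, 1 rose and 1 fell in A549 and 6 fell in 293T. Of 9 activator or assembly genes, 3 fell in A549, and 1 rose and 3 fell in 293T. Over all genes tested, 13.3% were higher and 26.9% lower in A549, and 13.7% and 24.2% in 293T. The class counts were not tested against these shares.

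The called members were read against motifs known from proteasome and stress genes in the 250 bases before the start of the gene, with 1 RefSeq window (GRCh38.p14) per gene and both strands searched. Windows matched 41 of the 47 genes. The core of the antioxidant response element, TGACNNNGC, which binds NFE2L1 and its relatives, was in 11 of 41 windows (26.8%), against 11.0% of 27305 windows of the same length. It was in 6 of 13 windows of genes called in a line and in 5 of 28 windows of genes called in neither. The NF-Y box, CCAAT, was in 18 of 41 (43.9%, against 33.0%). The heat shock element was in 0 of 41 as GAANNTTC (5.85% of all windows) and in 2 of 41 as TTCNNGAA (4.88%, against 6.72%), those of PSMD5 and PSMD6. Matches to different motifs did not overlap in any of these windows. The called genes PSMC5, PSMD7 and PSMD8 also hold an NF-Y box without a response element in these windows, and they are not shown. The stretches below are shown because their genes were called and hold a response element or, for PSMD10 and PSME3, an NF-Y box. They run from 5′ to 3′ along the strand of the gene, and capitals mark the match on either strand.
PSMB3, chr17:38752623-38752659, plus strand: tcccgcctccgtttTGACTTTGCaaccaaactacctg
PSMD3, chr17:39980756-39980792, plus strand: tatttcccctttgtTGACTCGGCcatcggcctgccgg
PSMD5, chr9:120842946-120843070, minus strand: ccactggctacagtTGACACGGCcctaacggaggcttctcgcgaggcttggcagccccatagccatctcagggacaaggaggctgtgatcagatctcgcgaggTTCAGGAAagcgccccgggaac
PSMD9, chr12:121888627-121888710, plus strand: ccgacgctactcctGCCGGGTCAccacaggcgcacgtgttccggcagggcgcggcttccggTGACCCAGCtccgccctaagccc
PSMD10, chrX:108091600-108091632, minus strand: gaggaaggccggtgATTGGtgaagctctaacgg
PSME2, chr14:24146763-24146799, minus strand: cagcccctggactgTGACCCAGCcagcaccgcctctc
PSME3, chr17:42833371-42833396, plus strand: caggagtctcggcgATTGGctgtgac
PSME4, chr2:53971005-53971041, minus strand: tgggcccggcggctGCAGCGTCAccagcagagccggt
The response element core stood before genes that rose (PSMB3, PSME2) and genes that fell (PSMD3, PSMD5, PSMD9, PSME4). PSMD5 holds a response element core and, nearer to its start, the inverted heat shock element, and PSMD9 holds 2 response element cores. A match describes letters and does not show binding.

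The alpha ring was nearly level in A549. Of its 7 genes, 0 were called in A549 (1 at an unadjusted p under 0.05) and 1 in 293T. PSMA7, the subunit of the ring with the highest FPKM, was at 209, 207 and 204 FPKM in exposed 293T libraries, against 188, 191 and 184 FPKM in 293T controls. Every exposed 293T library lay above every control (log2 fold change 0.14, SE 0.03, limma adjusted p = 0.00264). In A549 PSMA7 was at 246, 244 and 231 FPKM in exposed libraries, against 236, 231 and 233 FPKM in controls, which overlapped (log2 fold change 0.04, SE 0.03, limma adjusted p = 0.267), and the estimate in A549 became -0.08 with quantile normalization (limma adjusted p = 0.0193). PSMA2 was just outside the threshold in both lines. It was at 92.4, 98.2 and 97 FPKM in exposed A549 libraries, against 91, 89.8 and 89.9 FPKM in A549 controls, without overlap (log2 fold change 0.09, SE 0.03, limma adjusted p = 0.05001). Exposed 293T libraries held 103, 106 and 104 FPKM, against 96.4, 96 and 102 FPKM in 293T controls (log2 fold change 0.08, SE 0.03, limma adjusted p = 0.0561). PSMA2 was called in A549 with a filter at a mean of 1 FPKM (adjusted p = 0.0471), a pseudocount of 0.1 (0.0478) and median centring (0.00509). In 293T it was called with median centring (0.01955). No other setting with all libraries called it. About 34.6% of its annotated exon bases are shared with other genes. The other 5 alpha genes had log2 fold changes from -0.06 (PSMA5) to 0.04 (PSMA4) in A549 and from -0.06 (PSMA5) to 0.05 (PSMA1) in 293T.

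Of the 7 constitutive beta genes, PSMB3 and PSMB4 rose in A549 and PSMB3 rose in 293T. PSMB3, a structural subunit without a proteolytic site, was at 175, 175 and 162 FPKM in exposed A549 libraries, against 154, 165 and 155 FPKM in A549 controls. The lowest exposed library lay below the highest control (log2 fold change 0.11, SE 0.04, limma adjusted p = 0.0347). The 293T levels were 212, 201 and 198 FPKM with exposure, against 186, 188 and 188 FPKM in controls, without overlap (log2 fold change 0.12, SE 0.04, limma adjusted p = 0.0279). PSMB4, also without a proteolytic site, was at 213, 216 and 202 FPKM in exposed A549 libraries, against 198, 199.9 and 202 FPKM in A549 controls (log2 fold change 0.07, SE 0.03, limma adjusted p = 0.0432). All 3 exposed libraries of PSMB4 were above the controls, by little for replicate 3. These calls were narrow. In A549 the PSMB3 call was lost without exposed replicate 1 or 2 (adjusted p = 0.127 and 0.118) or control replicate 1 or 3 (0.104 and 0.115), and in 293T without exposed replicate 1 or 2 (0.111 and 0.0521) or any control (0.0614 to 0.0780). The PSMB4 call was lost without any A549 library but exposed replicate 3 (0.0713 to 0.167) or any 293T library but exposed replicate 1 or 3 (0.0518 to 0.0594). With quantile normalization PSMB4 was at -0.01 (adjusted p = 0.664) and PSMB3 at 0.03 in A549 (0.616) and 0.08 in 293T (0.117). With the library total taken over non-mitochondrial genes, PSMB3 was at 0.07 (0.125) and PSMB4 at 0.03 (0.273) in A549.

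The 3 constitutive subunits with proteolytic sites were not called in either line. PSMB5, the chymotrypsin-like site, was at 146, 139 and 138 FPKM in exposed A549 libraries, against 133, 137 and 138 FPKM in A549 controls (log2 fold change 0.05, SE 0.03, limma adjusted p = 0.213). The range of 2 SE on either side ran from -0.01 to 0.10. In 293T PSMB5 was at 137, 138 and 141 FPKM in exposed libraries, against 141, 141 and 139 FPKM in controls (log2 fold change -0.02, SE 0.03, limma adjusted p = 0.631), with a range of -0.08 to 0.04. The groups overlapped in both lines. PSMB6, the caspase-like site, was at 133, 143 and 138 FPKM in exposed A549 libraries, against 129.9, 135 and 134 FPKM in A549 controls, with a log2 fold change of 0.05 (range of 2 SE -0.02 to 0.12). Its levels in 293T were 118, 115 and 124 FPKM in exposed libraries, against 126, 122 and 118 FPKM in controls (-0.04, -0.11 to 0.04). These also overlapped. PSMB7, the trypsin-like site, was at 173, 168 and 171 FPKM in exposed A549 libraries, against 164, 171 and 172 FPKM in A549 controls (0.01, -0.05 to 0.08). In 293T it was at 201, 207 and 198 FPKM in exposed libraries, against 197, 205 and 188 FPKM in controls (0.04, -0.02 to 0.11). In this fit the ranges reached at most 0.12 in size on the log2 scale. They move with the scaling, and with median centring PSMB5 in A549 was at 0.10 and called (limma adjusted p = 0.0331).

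The immunoproteasome subunits take the places of those 3 after interferon. PSMB8 and PSMB9 were present in A549 and scarce in 293T, and PSMB10 was present in both lines, at a lower level in 293T. PSMB8, which replaces PSMB5, was at 11.3, 11.3 and 12.1 FPKM in exposed A549 libraries, against 11.9, 12.3 and 12.3 FPKM in A549 controls (log2 fold change -0.06, SE 0.04, limma adjusted p = 0.267). The exposed and control ranges overlapped. In 293T it had 1, 4 and 4 counts in the exposed libraries and 1, 0 and 1 in the controls, too few to call a change (limma adjusted p = 0.348, and 0.0239 with a pseudocount of 0.1). PSMB9, which replaces PSMB6, was at 5.59, 4.42 and 5.15 FPKM in exposed A549 libraries, against 5.16, 4.11 and 5.37 FPKM in A549 controls (log2 fold change 0.04, limma adjusted p = 0.787). In 293T PSMB9 had 7, 14 and 4 counts in exposed libraries, against 11, 5 and 7 in controls, which overlapped. PSMB10, which replaces PSMB7, was at 19.7, 18.9 and 19 FPKM in exposed A549 libraries, against 21.5, 19.3 and 20.8 FPKM in A549 controls (log2 fold change -0.09, SE 0.08, limma adjusted p = 0.37). Exposed 293T libraries held 10.8, 10.6 and 10.6 FPKM, against 8.72, 10.9 and 11.7 FPKM in 293T controls (log2 fold change 0.03, SE 0.08, limma adjusted p = 0.779). Neither pair of PSMB10 groups stood apart.

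The share of each inducible subunit in its place was computed as its FPKM over the sum with its constitutive counterpart. PSMB8 made up 7.6 ± 0.478% in exposed A549 and 8.18 ± 0.0351% in control A549 (SD, n = 3 each). PSMB9 made up 3.54 ± 0.511% in exposed A549 and 3.54 ± 0.510% in control A549. PSMB10 made up 10.1 ± 0.108% in exposed A549 and 10.9 ± 0.687% in control A549. The lowest and highest PSMB8 shares were 7.16 and 8.11% in exposed A549, against 8.15 and 8.22% in control A549, so these ranges lay next to each other. For PSMB10 they were 10.02 and 10.23% in exposed A549, against 10.19 and 11.6% in control A549, which overlapped. In 293T PSMB10 made up 5.0 ± 0.130% in exposed libraries and 5.05 ± 0.803% in controls, and PSMB8 and PSMB9 were each under 0.32% in every 293T library.

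The ATPases of the base, PSMC1 to PSMC6, form the ring that unfolds substrates. In A549 0 of 6 were called (0 at an unadjusted p under 0.05), and in 293T PSMC5 fell. PSMC5 was at 92.6, 95.8 and 99.5 FPKM in exposed 293T libraries, against 101, 108 and 102 FPKM in 293T controls, without overlap (log2 fold change -0.11, SE 0.03, limma adjusted p = 0.0234). The call was lost without exposed replicate 1 or 2 (adjusted p = 0.0919 and 0.0608) or control replicate 2 (0.106) of 293T. It was also lost with median centring (-0.08, adjusted p = 0.119) and with each line fitted alone (0.0646). About 19.5% of its annotated exon bases are shared with FTSJ3 on the other strand. PSMC3, among the 6 highest estimates in A549, was at 100.4, 91.9 and 93.8 FPKM in exposed A549 libraries, against 87.6, 92.1 and 91 FPKM in A549 controls, with overlap (log2 fold change 0.08, SE 0.04, limma adjusted p = 0.132). In 293T its estimate had the opposite sign, with 112, 107 and 115 FPKM in exposed libraries, against 118, 122 and 116 FPKM in controls (log2 fold change -0.09, SE 0.04, limma adjusted p = 0.0792). The 293T groups stood apart. The difference of the effects between the lines was 0.17 (SE 0.06, limma adjusted p = 0.0617), and without exposed replicate 3 of 293T it was 0.20 (adjusted p = 0.0372). With median centring it was 0.20 (0.0494), and PSMC3 was called higher in A549 (0.13, 0.0264). PSMC3 was called lower in 293T with quantile normalization (-0.11, 0.0314) and the library total taken over non-mitochondrial genes (-0.12, 0.0329). Without exposed replicate 3 of 293T it was called there too (-0.12, 0.0412). The other 4 ATPases had log2 fold changes from -0.08 (PSMC1) to 0.04 (PSMC2) in A549 and from -0.01 (PSMC1) to 0.02 (PSMC4) in 293T.

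Of the 11 non-ATPase subunits of the cap, PSMD7 fell in A549, and PSMD3, PSMD4 and PSMD8 fell in 293T. In the other line the log2 fold changes were -0.05 for PSMD7, -0.06 for PSMD3, -0.04 for PSMD4 and -0.02 for PSMD8, not called. Their differences between the lines were not called either (limma adjusted p = 0.249 to 0.580). With quantile normalization PSMD3, PSMD4 and PSMD8 were called lower in A549 (0.0303, 0.0458 and 0.0271). PSMD7, the partner of the deubiquitinase PSMD14 in the lid, was at 88.7, 83.8 and 89.1 FPKM in exposed A549 libraries, against 89.6, 97.5 and 96.3 FPKM in A549 controls (log2 fold change -0.11, SE 0.04, limma adjusted p = 0.0443). Its highest exposed library lay just under its lowest control. The call was lost without exposed replicate 1 or 2 (adjusted p = 0.0631 and 0.165) or control replicate 2 or 3 (0.148 and 0.135) of A549, and also without exposed replicate 2 (0.056) or any control (0.0501 to 0.0576) of 293T. Median centring (-0.06, adjusted p = 0.339), no filter (0.0892), no variance trend (0.0710), each line alone (0.0778) and the replicate block (0.1025) removed it too. In 293T PSMD3, a lid subunit, was at 115, 112 and 115 FPKM in exposed libraries, against 127, 123 and 118 FPKM in controls (log2 fold change -0.11, SE 0.03, limma adjusted p = 0.0106). PSMD8, another lid subunit, was at 119, 117 and 122 FPKM in exposed 293T, against 127, 128 and 127 FPKM in controls (log2 fold change -0.09, SE 0.03, limma adjusted p = 0.0165). PSMD4, a receptor for ubiquitin chains, was at 155, 158 and 163 FPKM in exposed 293T, against 174, 167 and 163 FPKM in controls (log2 fold change -0.08, SE 0.03, limma adjusted p = 0.0486). None of these 3 pairs of groups overlapped, though those of PSMD4 were apart only by less than the rounding. The PSMD3 call was lost without control replicate 1 (adjusted p = 0.0512) and that of PSMD8 without exposed replicate 2 (0.0674) or control replicate 2 (0.0600) of 293T. Median centring removed the 293T calls of PSMD3 (adjusted p = 0.066), PSMD4 (0.213) and PSMD8 (0.141). Without a variance trend PSMD8 was not called either (0.0518). PSMD4 kept its call in 3 of 12 fits that left out 1 library, those without exposed replicate 2 of A549, exposed replicate 3 of 293T or control replicate 3 of 293T (adjusted p from 0.0551 to 0.197 where lost). Quantile normalization (adjusted p = 0.0816), no filter (0.0680) and no variance trend (0.101) also removed it. So did each line alone (0.0900), the replicate block (0.108) and limma-voom on recovered counts (0.0502). PSMD14, which removes ubiquitin from substrates, had a log2 fold change of -0.00 in both lines, with 82.4 ± 2.3 FPKM in exposed A549 and 82.6 ± 2.53 FPKM in control A549 (SD, n = 3 each). The scaffold subunits PSMD1 and PSMD2 were between -0.02 and 0.03 in both lines.

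The base assembly chaperones held the largest called changes of the family, a rise of PSMD10 in A549 and falls of PSMD5 and PSMD9 in 293T. PSMD10, also called gankyrin, binds the ATPase PSMC4 during assembly and is known as an oncoprotein. It rose in A549, where it was at 51.9, 56 and 49.8 FPKM in exposed libraries, against 43.4, 44.2 and 43 FPKM in controls. All exposed libraries lay above all controls, with 52.6 ± 3.12 FPKM against 43.5 ± 0.612 FPKM (SD, n = 3 each), 1.21-fold higher (log2 fold change 0.27, SE 0.04, limma adjusted p = 2.23e-04). The 293T levels were 87, 87.8 and 89 FPKM with exposure, against 83.7, 88 and 87.4 FPKM in controls, which overlapped (log2 fold change 0.03, SE 0.04, limma adjusted p = 0.638). The effect in A549 minus that in 293T was 0.24 (SE 0.05, limma adjusted p = 0.0146). PSMD10 was the 1 gene of 46 higher by this test and 0 were lower (5 at an unadjusted p under 0.05 in either direction), where 12.5% of all genes were called, 5.51% higher and 7.03% lower. Both its rise in A549 and the difference kept their calls in every alternative setting and every fit without 1 library, with log2 values from 0.22 to 0.32 for the rise and from 0.19 to 0.28 for the difference. The gene spans bases 108084207 to 108091542 of chromosome X (GRCh38.p14), shares no exon base with another gene, and has 3 annotated pseudogenes.

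PSMD5 inhibits assembly and binds the ATPase PSMC2. It had the largest fall of the family, in 293T, with 1.93, 2.1 and 3.25 FPKM in exposed libraries, against 3.94, 4.34 and 4.28 FPKM in controls. All exposed libraries lay below the controls, with 2.43 ± 0.719 FPKM against 4.19 ± 0.219 FPKM (SD, n = 3 each), 1.72-fold lower (log2 fold change -0.62, SE 0.11, limma adjusted p = 0.00112). In A549, where its level was higher, it was at 23.2, 23.5 and 26.7 FPKM in exposed libraries, against 28.4, 29.7 and 28.5 FPKM in controls. These groups did not overlap either, but the change was not called (log2 fold change -0.23, SE 0.11, limma adjusted p = 0.109). It was called with each line fitted alone (adjusted p = 0.0223), with limma-voom on recovered counts (0.00872) and without exposed replicate 3 of 293T (0.00604). Replicate 3 of the exposed 293T group held the highest of the exposed values and gave PSMD5 a coefficient of variation of 29.6% there, the highest of 44 proteasome genes in that group. The difference between the lines was 0.38 (SE 0.15, limma adjusted p = 0.13), without that replicate it was 0.55 (adjusted p = 0.00241), and with limma-voom on recovered counts 0.57 (0.0407). The gene spans bases 120816053 to 120842922 of chromosome 9 and shares no exon base with another gene.

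PSMD9, a chaperone of the ATPases PSMC3 and PSMC6, also fell in 293T. It was at 16.5, 17.9 and 20.8 FPKM in exposed libraries, against 24, 22.4 and 23.1 FPKM in controls, without overlap, 1.26-fold lower (log2 fold change -0.32, SE 0.06, limma adjusted p = 0.00227). In A549 it was at 14.7, 15.9 and 14.9 FPKM in exposed libraries, against 16.6, 16.9 and 16.3 FPKM in controls, also apart but not called (log2 fold change -0.12, SE 0.06, limma adjusted p = 0.162). Exposed replicate 3 of 293T was again the nearest to the controls. Without it, the A549 change was called (adjusted p = 0.0412), as was the difference between the lines (0.29, adjusted p = 0.0135, against 0.20 and 0.174 with all libraries). About 22.7% of the exon bases of PSMD9 are shared with other genes, WDR66 among them.

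**Figure D3:**
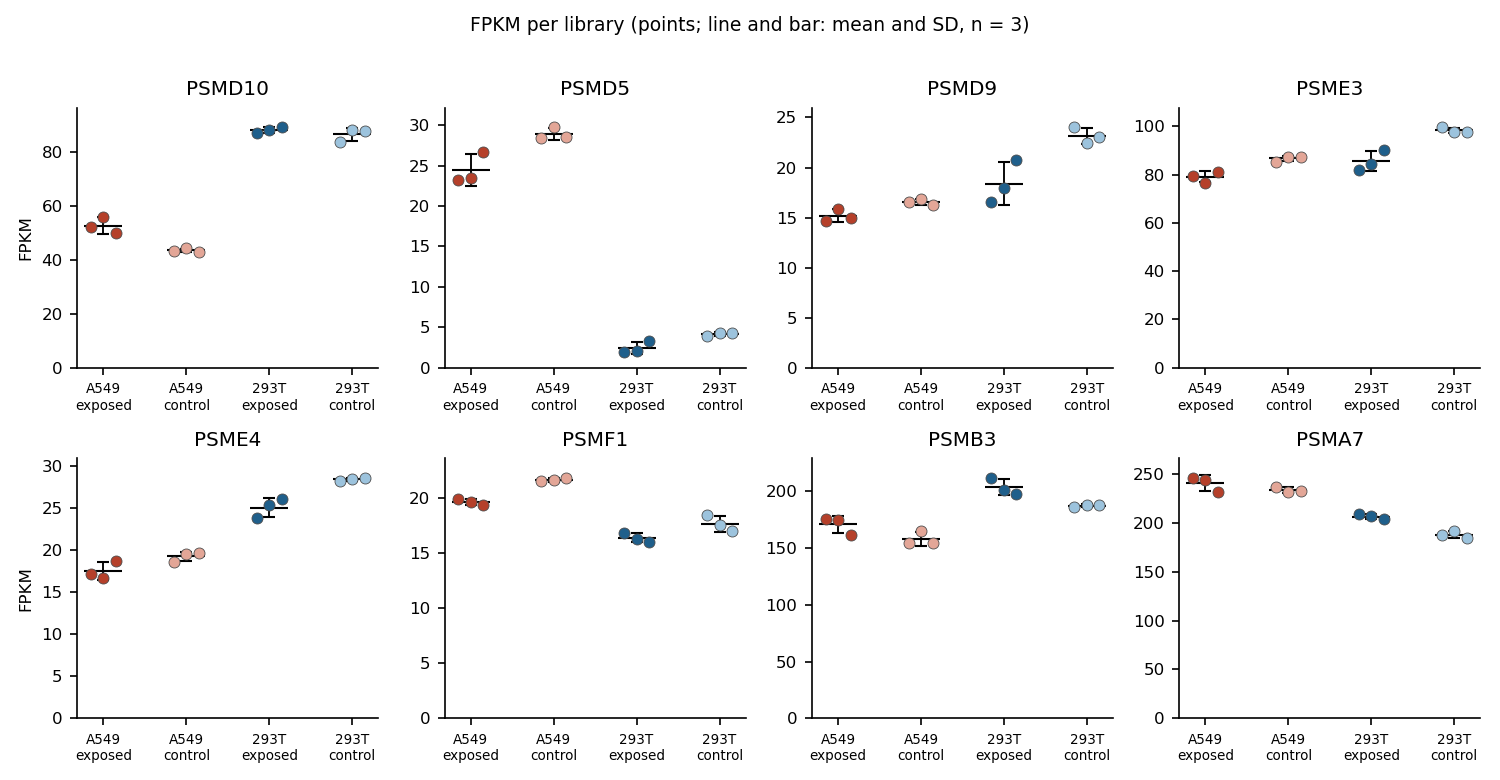
FPKM in each library (points) for 8 proteasome genes, in exposed and control libraries of A549 and of 293T, with the mean (line) and SD (bar) of 3 libraries on axes that start at 0. Exposed A549 libraries of PSMD10 lie at 49.8 to 56.0 FPKM, above the controls at 43.0 to 44.2 FPKM, and exposed 293T libraries of PSMD5 lie at 1.93 to 3.25 FPKM, below the controls at 3.94 to 4.34 FPKM.

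PSME3 and PSME4 fell in both lines, PSME2 rose in 293T alone among the calls, and PSME1 was not called. PSME1 and PSME2 form a mixed ring that interferon induces. PSME3 forms a nuclear ring of its own, and PSME4 is a large nuclear activator. PSME3 was at 79.5, 76.7 and 81.2 FPKM in exposed A549 libraries, against 85.3, 87.2 and 87.4 FPKM in A549 controls (log2 fold change -0.13, SE 0.04, limma adjusted p = 0.0114). Its levels in 293T were 82, 84.3 and 90.2 FPKM in exposed libraries, against 99.6, 97.6 and 97.8 FPKM in controls (log2 fold change -0.20, SE 0.04, limma adjusted p = 0.00106). The groups stood apart in both lines, and with median centring the A549 call was lost (log2 fold change -0.07, adjusted p = 0.121). PSME4 was at 17.2, 16.6 and 18.7 FPKM in exposed A549 libraries, against 18.6, 19.5 and 19.6 FPKM in A549 controls (log2 fold change -0.13, SE 0.04, limma adjusted p = 0.034), and exposed replicate 3 lay within the control range. The A549 call was lost without exposed replicate 1 or 2 (adjusted p = 0.0992 and 0.136) or control replicate 2 or 3 (0.0909 and 0.104). It was also lost with median centring (-0.08, adjusted p = 0.202), quantile normalization (0.0699), no filter (0.0605) and each line fitted alone (0.0773). In 293T PSME4 was at 23.8, 25.3 and 26 FPKM in exposed libraries, against 28.2, 28.4 and 28.6 FPKM in controls, without overlap (log2 fold change -0.18, SE 0.04, limma adjusted p = 0.00901).

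PSME2 was at 34.9, 36.5 and 38.9 FPKM in exposed 293T libraries, against 32.2, 34 and 34.7 FPKM in 293T controls (log2 fold change 0.12, SE 0.04, limma adjusted p = 0.042). The lowest exposed library lay just above the highest control, and the call was lost without exposed replicate 2 or 3 (adjusted p = 0.0834 and 0.144) or control replicate 1 or 2 (0.161 and 0.0732) of 293T. It was also lost without exposed replicate 3 or control replicate 2 or 3 of A549 (0.0509 to 0.0564). No filter (adjusted p = 0.0805), the library total taken over non-mitochondrial genes (0.0838) and no variance trend (0.0624) removed it too. So did each line fitted alone (0.0922) and limma-voom on recovered counts (0.0946). PSME1 in 293T was at 20.5, 21.6 and 21.9 FPKM in exposed libraries, against 19.6, 20.3 and 21 FPKM in controls, which overlapped (log2 fold change 0.07, SE 0.04, limma adjusted p = 0.181). In A549 PSME1 was at 86.7, 85.4 and 80.4 FPKM in exposed libraries, against 80.6, 83.1 and 80.7 FPKM in controls (log2 fold change 0.05, SE 0.04, limma adjusted p = 0.392). PSME2 in A549 was at 106, 98 and 99.8 FPKM in exposed libraries, against 97.4, 101 and 99.6 FPKM in controls (log2 fold change 0.03, SE 0.04, limma adjusted p = 0.694). Neither was called there and both overlapped. PSME1 and PSME2 together took 66.6, 66.3 and 64.3% of the summed FPKM of the 4 activators in exposed A549 libraries, against 63.1, 63.3 and 62.7% in controls. In 293T they took 34.3, 34.7 and 34.4% in exposed libraries, against 28.8, 30.1 and 30.6% in controls. The exposed shares were above the control shares in both lines. A share within a library does not depend on scaling by 1 factor per library. The shares were not recomputed after quantile normalization.

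PSMF1 encodes PI31, which inhibits the isolated core and acts as an adaptor in cells. It was at 19.9, 19.6 and 19.3 FPKM in exposed A549 libraries, against 21.5, 21.6 and 21.8 FPKM in A549 controls, without overlap (log2 fold change -0.14, SE 0.04, limma adjusted p = 0.00899). In 293T it was at 16.8, 16.3 and 16 FPKM in exposed libraries, against 18.4, 17.5 and 16.9 FPKM in controls, also apart (log2 fold change -0.10, SE 0.04, limma adjusted p = 0.0387). The A549 call was lost with quantile normalization (adjusted p = 0.0530) and median centring (0.129). The 293T call was lost without exposed replicate 2 or 3 (adjusted p = 0.0980 and 0.0946) or control replicate 1 or 2 (0.161 and 0.0791) of 293T, and without control replicate 2 or 3 of A549 (0.0504 and 0.0520). It was also lost with quantile normalization (-0.07, adjusted p = 0.185) and median centring (-0.07, 0.162). The replicate block (0.0585), each line fitted alone (0.0886) and no variance trend (0.0504) removed it too. The core assembly chaperones PSMG1 to PSMG4, which guide the alpha ring, had 0 of 4 called in each line (0 in A549 and 2 in 293T at an unadjusted p under 0.05). Their log2 fold changes ran from -0.11 (PSMG1) to -0.02 (PSMG3) in A549 and from -0.14 (PSMG4) to -0.07 (PSMG1) in 293T. These estimates were all below 0, but those of PSMG3 and PSMG4 in A549 were above 0 with quantile normalization or median centring. PSMG4 was low throughout, at 0.84 ± 0.0453 FPKM in exposed A549, 0.903 ± 0.0946 FPKM in control A549, 1.91 ± 0.205 FPKM in exposed 293T and 2.19 ± 0.0654 FPKM in control 293T.

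The balance of core and cap within a library, taken as a ratio of summed FPKM, moved the same way in both lines. The summed FPKM of the 14 alpha and constitutive beta genes was divided by that of the 17 ATPase and non-ATPase cap subunits. This ratio was 1.28, 1.30 and 1.24 in exposed A549 libraries, against 1.23, 1.21 and 1.22 in controls. In 293T it was 1.49, 1.47 and 1.42 in exposed libraries, against 1.36, 1.36 and 1.38 in controls. Every exposed library lay above every control of its line. The means were 1.28 ± 0.0299 against 1.22 ± 0.010 in A549 and 1.46 ± 0.0336 against 1.37 ± 0.0122 in 293T (SD, n = 3 each). With 3 against 3 libraries an exact two-sided permutation test cannot go below 0.10, and none was made. The core sum was 1684 ± 21.5 FPKM in exposed A549 and 1635 ± 17.7 FPKM in control A549, and 2049 ± 12.9 FPKM in exposed 293T and 2003 ± 8.69 FPKM in control 293T. Such sums are weighted by abundant genes. PSMA7 averaged 206 FPKM in exposed and 188 FPKM in control 293T, and PSMB3 204 and 187 FPKM. In 293T 4 of 7 alpha genes and 4 of 7 constitutive beta genes had estimates above 0, with medians of 0.020 and 0.004. In A549 they were 5 of 7 and 6 of 7, with medians of 0.034 and 0.047. The cap sum was 1320 ± 15.3 FPKM in exposed A549 and 1341 ± 25.4 FPKM in control A549, and 1405 ± 36.1 FPKM in exposed 293T and 1461 ± 12.3 FPKM in control 293T. The sum over all 47 genes was 3506 ± 13.2 FPKM in exposed A549 and 3487 ± 49.8 FPKM in control A549. In 293T it was 3856 ± 58.4 FPKM with exposure and 3891 ± 16.4 FPKM without. Both pairs of totals overlapped.

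Core and cap genes also differed in length. The length implied by count and FPKM had a median of 1114 bases for the 14 core genes and of 1956 bases for the 17 cap genes. Among all genes tested, those under 1500 bases had a median log2 fold change of -0.00 in A549 and -0.02 in 293T, and those of 1500 to 3000 bases -0.05 and -0.05. The 17 proteasome genes under 1500 bases had medians of 0.04 in A549 and 0.03 in 293T, and the 14 of 1500 to 3000 bases -0.02 and -0.07. The 10 of 3000 to 5000 bases had medians of -0.01 and -0.05, against -0.05 and -0.04 for all genes of that length. The 5 proteasome genes of at least 5000 bases had medians of -0.08 and -0.10, against -0.04 and -0.01 for all genes of that length. The part of length in the core to cap ratio was not tested. As a quotient within a library, the ratio does not depend on the share of mitochondrial transcripts or on another scaling by 1 factor per library.

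**Figure D4:**
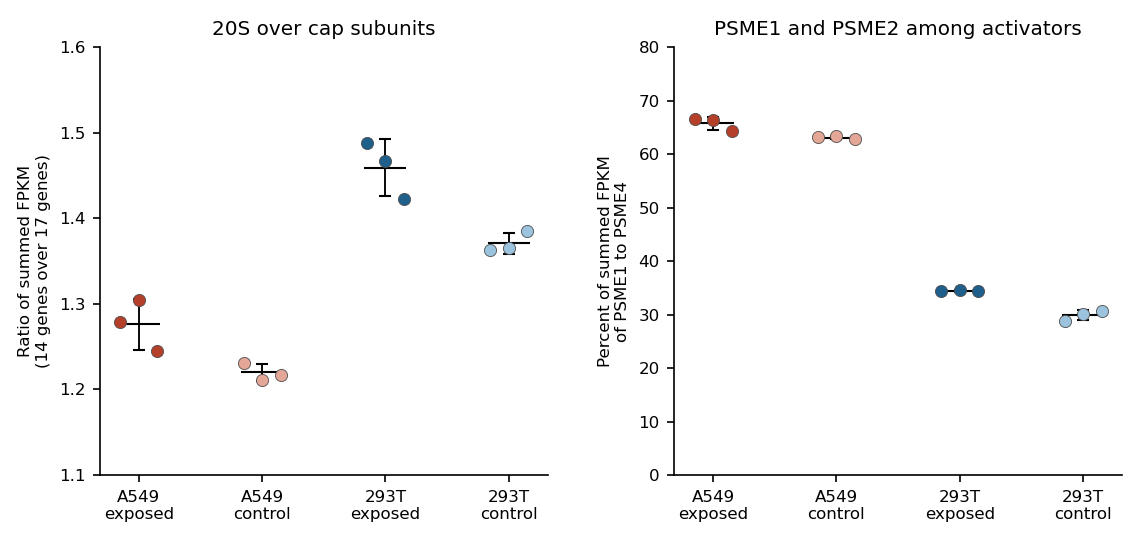
Summed FPKM of 14 core genes over 17 cap genes (left, axis from 1.1) and the percent of activator FPKM that is PSME1 and PSME2 (right) in each library, with the mean (line) and SD (bar) of 3 libraries. In both panels the exposed libraries of a line lie above its controls, with mean ratios of 1.28 against 1.22 in A549 and 1.46 against 1.37 in 293T.

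A list of 23 proteasome partners outside the name rule was all present and tested. In A549 1 rose, UBQLN1, and 6 fell, among them UBQLN4, IPO9, ZFAND5, ADRM1 and NGLY1. In 293T 4 rose, UBQLN2, ZFAND5, UBE3A and TXNL1, and 4 fell, among them IPO9, UBE3C and UCHL5. These were 7 and 8 of 23, where 40.2% of all genes were called in A549 and 38.0% in 293T. The NGLY1 call was lost without any A549 library but exposed replicate 3 and without exposed replicate 2 or control replicate 2 or 3 of 293T (adjusted p = 0.0527 to 0.168). The TXNL1 call was lost without exposed replicate 2 or any control of 293T (0.0693 to 0.132). That of UCHL5 was kept only without replicate 1 of the exposed 293T, control 293T or control A549 group (0.0501 to 0.185 elsewhere). Over 10 other settings NGLY1 lost its call in 6 (0.0541 to 0.258), TXNL1 in 3 (0.057 to 0.0682) and UCHL5 in 7 (0.0544 to 0.107). The transcription factor NFE2L1 was at 61.9, 60.5 and 62.8 FPKM in exposed A549 libraries, against 62.8, 63.8 and 64.9 FPKM in A549 controls (log2 fold change -0.05, SE 0.03, limma adjusted p = 0.308). Exposed 293T libraries held 30.4, 30.5 and 30.8 FPKM, against 31, 29.3 and 28.3 FPKM in 293T controls (log2 fold change 0.05, SE 0.03, limma adjusted p = 0.277). It was not called in either line. POMP, the maturation factor of the core, was at 65.5 ± 0.785 FPKM in exposed A549 and 62.4 ± 2.76 FPKM in control A549 (limma adjusted p = 0.141), and at 88.9 ± 2.1 FPKM in exposed 293T and 85.2 ± 2.19 FPKM in control 293T (limma adjusted p = 0.20). ADRM1, a ubiquitin receptor of the cap, fell in A549, with 35 ± 1.42 FPKM in exposed and 38.3 ± 0.228 FPKM in control libraries (log2 fold change -0.13, SE 0.04, limma adjusted p = 0.0114), a call lost with median centring (adjusted p = 0.154). In 293T ADRM1 was at 49.6 ± 1.55 FPKM in exposed and 52.5 ± 1.27 FPKM in control libraries (limma adjusted p = 0.0912). SEM1, a small lid subunit, had log2 fold changes of 0.03 in A549 (limma adjusted p = 0.668) and -0.05 in 293T (0.459).

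IPO9, an importin that takes proteasomes into the nucleus, fell by 0.16 in A549 and by 0.22 in 293T on the log2 scale (limma adjusted p = 0.0111 and 0.00243), and with median centring the A549 call was lost (adjusted p = 0.0579). The ubiquilins, which carry ubiquitinated proteins to the cap, differed among themselves. UBQLN1 was at 64.2, 62.6 and 60.5 FPKM in exposed A549 libraries, against 57.4, 55.8 and 55.5 FPKM in A549 controls (log2 fold change 0.15, SE 0.03, limma adjusted p = 0.00205), UBQLN4 had a log2 fold change of -0.24 in A549 (limma adjusted p = 1.78e-04), and UBQLN2 one of 0.24 in 293T (limma adjusted p = 0.0125). The UBQLN2 call was lost without exposed replicate 1 or control replicate 1 of 293T (adjusted p = 0.056 and 0.0581). ZFAND5, which stimulates the proteasome, fell in A549 and rose in 293T. It was at 30.5, 27.9 and 31 FPKM in exposed A549 libraries, against 34.6, 31.6 and 32.7 FPKM in A549 controls (log2 fold change -0.14, SE 0.05, limma adjusted p = 0.0362), and that call was lost without exposed replicate 1 or 2 (adjusted p = 0.0509 and 0.154) or control replicate 1 or 3 (0.132 and 0.0712) of A549. The A549 call was also lost with median centring (-0.08, adjusted p = 0.171), quantile normalization (0.0611), no filter (0.0706) and each line fitted alone (0.0764). Its levels in 293T were 17.3, 17.4 and 16.1 FPKM in exposed libraries, against 14.1, 14.4 and 15 FPKM in controls (log2 fold change 0.21, SE 0.05, limma adjusted p = 0.0054). UBE3C, a ligase that works at the proteasome, fell in 293T by 0.21 on the log2 scale (limma adjusted p = 0.0033), and its change in A549 was -0.04 (limma adjusted p = 0.592). The difference of these effects was 0.18 (limma adjusted p = 0.0925), and without exposed replicate 3 of 293T it was 0.24 (0.00555).

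The unexposed lines differed in most proteasome genes. Of 46 tested, 15 were higher and 26 lower in control A549 than in control 293T, 41 in all, while 88.3% of all genes were called (32.4% higher, 55.9% lower). Without PSMB8 and PSMB9, which passed the filter through A549 alone, 39 of 44 were called. The median log2 difference was -0.25 over all genes and -0.15 over the proteasome genes. With quantile normalization these medians were -0.15 over all genes and -0.05 over the proteasome genes. The genes not called were PSMA3, PSMB5, PSMC1, PSMC6 and PSMD7. With quantile normalization or median centring PSMA2, PSMD11 and PSMD13 were no longer called and PSMD7 was called as higher, and with quantile normalization PSME3 was not called either. The PSMD13 call was also lost with no filter, with the non-mitochondrial total, without a variance trend and with the replicate block.

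The genes higher in A549 included the interferon-inducible ones. PSMB8 had 704, 725 and 726 counts in control A549 and 1, 0 and 1 in control 293T, and its fitted log2 difference of 3.70 depends on the pseudocount. PSMB9 was at 5.16, 4.11 and 5.37 FPKM in control A549, against 0.283, 0.127 and 0.18 FPKM in control 293T, 24.8-fold higher in A549 (log2 difference 2.29 on the log2(FPKM + 1) scale). PSME1 was at 81.5 ± 1.44 FPKM in control A549 and 20.3 ± 0.70 FPKM in control 293T (SD, n = 3 each), 4.02-fold higher (log2 fold change 1.95, SE 0.04, limma adjusted p = 3.59e-14). PSME2 was 2.95-fold and PSMB10 1.97-fold higher in control A549. PSME3 and PSME4, the activators outside that group, were lower. PSME3 was at 86.6 ± 1.16 FPKM in control A549 and 98.3 ± 1.1 FPKM in control 293T, a call lost with quantile normalization. PSME4 was at 19.3 ± 0.537 FPKM in control A549 and 28.4 ± 0.207 FPKM in control 293T (log2 fold change -0.54, SE 0.04, limma adjusted p = 8.88e-08). The chaperone PSMD5 was at 28.4, 29.7 and 28.5 FPKM in control A549, against 3.94, 4.34 and 4.28 FPKM in control 293T, 6.90-fold higher (log2 fold change 2.53, SE 0.11, limma adjusted p = 9.48e-11). PSMC4 was 1.78-fold higher in control A549.

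The lowest in A549 relative to 293T was PSMD6, a lid subunit, at 40.9, 43 and 43.8 FPKM in control A549, against 99.1, 103 and 102 FPKM in control 293T (log2 fold change -1.23, SE 0.05, limma adjusted p = 2.25e-11). PSMG1, a chaperone of the alpha ring, was at 19.5, 21 and 20.1 FPKM in control A549, against 46.4, 44.3 and 44.8 FPKM in control 293T (log2 fold change -1.12, SE 0.05, limma adjusted p = 1.89e-10). PSMB1, a structural beta subunit, was at 115, 128 and 123 FPKM in control A549, against 250.4, 251 and 256 FPKM in control 293T (log2 fold change -1.04, SE 0.04, limma adjusted p = 9.41e-12). None of these ranges overlapped. PSMD10 was lower in control A549 as well, at 43.5 ± 0.612 FPKM against 86.3 ± 2.35 FPKM in control 293T, so that exposed A549, at 52.6 ± 3.12 FPKM, lay under both 293T groups. Across 46 genes, the mean levels in the controls of both lines had a Pearson correlation of 0.845 between logs and a Spearman correlation of 0.886, over points that share library and gene length.

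**Figure D5:**
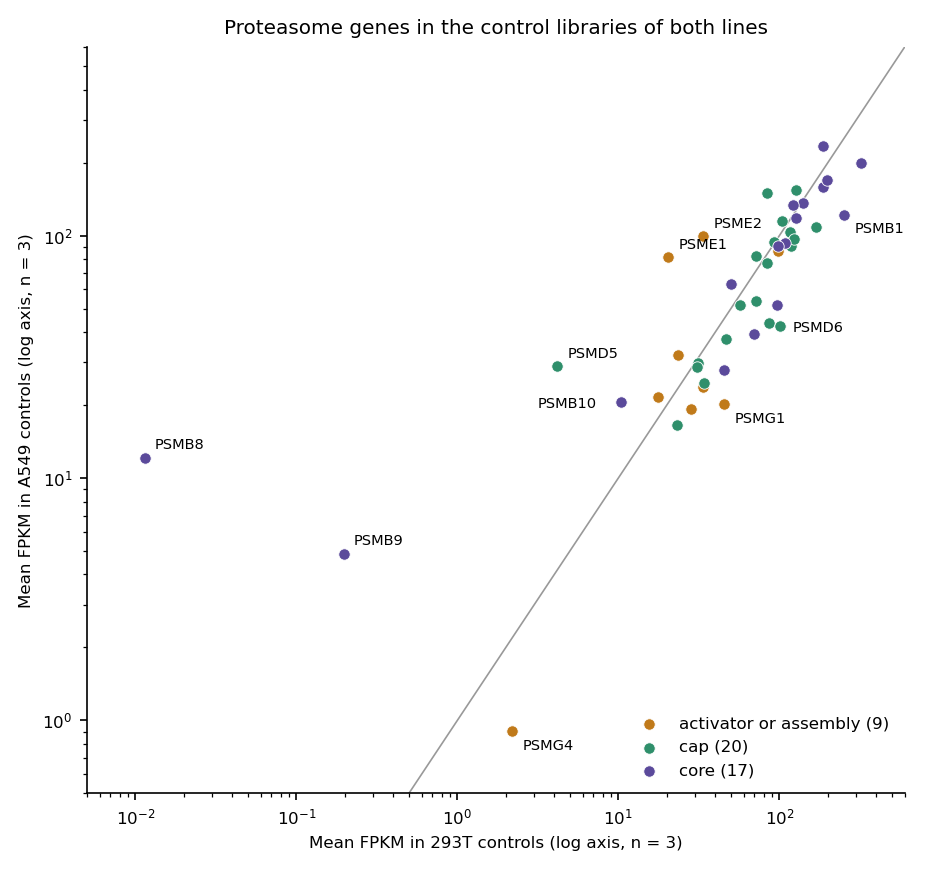
Mean FPKM of 46 proteasome genes in control A549 (vertical, log axis) against control 293T (horizontal, log axis), 3 libraries each, coloured by class, with a line of equal level. PSMB8, PSMB9, PSMB10, PSMD5, PSME1 and PSME2 lie above the line, and PSMD6, PSMG1 and PSMB1 lie below it.

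The stoichiometric subunits differed widely in FPKM within a library. Over the 31 genes of the core and cap particles, mean FPKM in control A549 ran from 24.5 (PSMD12) to 233 (PSMA7), a 9.51-fold range. In control 293T it ran from 30.6 (PSMC6) to 321 (PSMB4), a 10.5-fold range. Log FPKM and log implied length had a Pearson correlation of -0.868 in control A549 and -0.830 in control 293T over these 31 genes, and FPKM holds that length as its divisor. The order of levels between subunits therefore rests on the lengths used.

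Replicates of the family were close. The median coefficient of variation was 3.18% in exposed A549 and 2.57% in control A549, and 3.6% in exposed 293T and 2.47% in control 293T. Over 2851 genes of similar level it was 3.22% and 2.98% in A549 and 3.89% and 2.48% in 293T. Of the 47 genes, 12 share over 10% of their annotated exon bases with another gene, PSMC1 the most (75.8%, with NRDE2 on the other strand), and 12 have annotated pseudogenes. All shared bases of PSMB10, PSMA1 and PSMA6 and most of those of PSMD9 lie on the strand of the gene, so their values are uncertain however reads were counted. Those of PSMC1, PSMD7, PSMB8, PSMC5, PSMG2, PSMG4 and PSMD1 lie on the other strand, and PSMA2 shares bases on both. The sources used here do not say if counting was by strand, so these values are uncertain too.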

How the data were processed

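Poly(A)-selected RNA of 12 libraries (4 groups of 3) had been sequenced. The submitters' processing notes name fastp, HISAT2, HTSeq and the build GRCh38, without versions or settings. The table that the authors deposited holds FPKM per gene. The total of a library is fixed on this scale, and abundant genes that rise lower all others. Whole counts were recovered from them for 100% of genes within 0.01 counts, up to a common divisor for genes with few counts, giving 37171616 to 38883963 per library. These served depth, lengths and 1 alternative.

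Genes with at least 0.5 FPKM in at least 3 libraries (13811, with 12537 removed) were fitted as log2(FPKM + 1) in R 4.3.3 by limma 3.58.1, with a mean for each group, an intensity trend and 8 residual degrees of freedom, two-sided, with Benjamini-Hochberg adjustment over all genes and a threshold of 0.05. This scale understates changes of low genes. Every adjusted p is from limma. Other values used pandas 2.3.3 and numpy 2.4.6, and the fits were tested on simulated data. Contrasts were exposed minus control in each line, their difference (A549 minus 293T), and A549 minus 293T controls. Folds are ratios of mean FPKM. Coordinates and promoter windows are from RefSeq (GRCh38.p14) and exon overlaps from GENCODE (GRCh38).

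The members, lists and tests were chosen with earlier results of these data known. Values per library were given for the 6 highest and 3 lowest estimates per line, the catalytic and immunoproteasome subunits, the activators, and up to 3 called genes each way for the difference and the controls. Those of other called members were added after their values were seen. Partners were the 5 largest called changes per line and NFE2L1, POMP, ADRM1 and SEM1, and 1 item picked by this rule is not reported here. Alternatives were a pseudocount of 0.1, a filter at a mean of 1 FPKM or none, quantile normalization, median centring, the library total taken over non-mitochondrial genes, no trend, each line alone, a replicate block, limma-voom on recovered counts, and each library left out.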

Additional observations from a re-analysis of the deposited data

Results flagged for a closer look

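For 4 genes, 1 member and 3 partners, the effect of exposure differed between the lines by the test of the difference itself (limma adjusted p under 0.05, A549 minus 293T). PSMD10 differed by 0.24 (SE 0.05, limma adjusted p = 0.0146), with a rise in A549 (log2 fold change 0.27) and 0.03 in 293T.

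UBQLN1 differed by 0.19 (SE 0.04, limma adjusted p = 0.0129), with 0.15 in A549 and -0.04 in 293T, where it was at 57.1, 57.1 and 54.9 FPKM in exposed libraries, against 57.4, 58.4 and 58.7 FPKM in controls. UBQLN4 differed by -0.18 (SE 0.05, limma adjusted p = 0.0329), with -0.24 in A549 and -0.07 in 293T. The UBQLN4 difference was past the threshold in 3 of 12 fits without 1 library, those without exposed replicate 3 of A549, control replicate 2 of A549 or exposed replicate 2 of 293T (adjusted p = 0.0509 to 0.0799 in the others), and not with median centring (0.0582) or the replicate block (0.0897). ZFAND5 differed by -0.35 (SE 0.07, limma adjusted p = 0.00718), with a fall in A549 and a rise in 293T.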

How the results depend on the processing

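In A549, 3 proteasome genes were higher and 4 lower. These counts were 1 and 2 with no filter on low values, 1 and 7 with quantile normalization, 8 and 0 with median centring, and 1 and 9 with the library total taken over non-mitochondrial genes. Without a variance trend and with each line fitted alone, 1 was higher. In 293T, 3 were higher and 9 lower. There 1 was higher with no filter on low values and without a variance trend, 4 were higher and 4 lower with median centring, 3 and 8 with quantile normalization, and 2 and 11 with the library total taken over non-mitochondrial genes. For the difference between the lines, 1 gene was higher and 0 lower. Median centring and limma-voom each gave 2 higher, and quantile normalization 1 lower. Without 1 library, the counts ran from 1 to 3 higher and 2 to 6 lower in A549, from 1 to 4 higher and 5 to 12 lower in 293T, and from 1 to 4 higher for the difference (4 without exposed replicate 3 of 293T). Between the controls, 15 or 16 genes were higher and 22 to 28 lower over all settings. Quantile normalization gave A549 effects of -0.082 for PSMA7 (limma adjusted p = 0.0193) and -0.014 for PSMB4 (0.664). The causes were not tested.

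The deviations of libraries from their group means gave no sign of pairing by the shared replicate numbers. Exposed and control libraries of the same number had correlations of -0.14, -0.07 and -0.04 in A549 and -0.07, 0.00 and -0.10 in 293T. No library correlated best with its own number. With 3 libraries per group these correlations cannot settle whether the libraries were paired. With the number as a replicate block, 2 genes were higher and 3 lower in A549, 3 and 7 in 293T, 1 and 0 for the difference, and 15 and 25 between the controls. PSMD10 in A549 and PSMA7, PSMD5, PSMD9, PSME3 and PSME4 in 293T kept their calls in every setting and every fit without 1 library. In A549 the calls of PSMB3, PSMB4, PSMD7, PSME3, PSME4 and PSMF1 held in 5, 3, 5, 9, 6 and 8 of 10 settings. In 293T those of PSMB3, PSME2, PSMC5, PSMD3, PSMD4, PSMD8 and PSMF1 held in 7, 5, 8, 9, 3, 8 and 5. Depth limits PSMB8, PSMB9 and PSMB11 in 293T, with at most 14 counts per library.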
